A study of Mus musculus with 40 samples.

Results

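The genes described here bind, carry, export or break down vitamin E and the lipids that travel with it. They are the 10 mouse genes Ttpa, Ttpal, Sec14l1, Sec14l2, Scarb1, Pltp, Abca1, Abcg1, Cyp4f14 and Npc1, taken from the array by exact gene name, out of 36362 gene names on the array. They are read by 14 of 55589 probes, and the 3 genes Ttpa, Ttpal and Scarb1 have more than 1 probe. Expression was measured on 40 Agilent single-colour arrays, with 4 mice in each of 10 groups of C57Bl/6 background. The groups cover 5 conditions, each in cerebral cortex and in cerebellum. Young wild-type (WT) mice were 2 months old and aged WT mice 29 months old, both fed normal chow that holds 36 mg α-tocopherol per kg. A further aged WT group was fed the diet without vitamin E. Aged Ttpa-/- mice, in which the gene for α-tocopherol transfer protein is knocked out, were kept at 29 months on the same vitamin E-deficient diet or on a diet supplemented with 600 mg of α-tocopherol per kg. Ttpa-/- mice on the normal diet, and young Ttpa-/- mice, were not analysed here, so the deficient diet and the loss of Ttpa can be separated only through the aged WT mice on the deficient diet.

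Vitamin E is absorbed with dietary fat and reaches tissues on lipoproteins. α-Tocopherol transfer protein, the product of Ttpa, is best known from liver, where it selects α-tocopherol for release into the blood. Without it the plasma and brain become poor in α-tocopherol, and in human disease the leading sign is a cerebellar ataxia. Ttpal, Sec14l1 and Sec14l2 encode proteins with the same CRAL-TRIO lipid-binding fold, and Sec14l2 is also called supernatant protein factor or tocopherol-associated protein. Scarb1 encodes SR-BI, the receptor that takes up lipids including α-tocopherol from HDL. Pltp encodes phospholipid transfer protein, which moves phospholipids and α-tocopherol between lipoproteins. Abca1 and Abcg1 export cholesterol and other lipids from cells to lipoprotein particles, Npc1 moves cholesterol out of late endosomes and lysosomes, and Cyp4f14 belongs to the cytochrome P450 group that starts the breakdown of the vitamin E side chain.

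All levels below are log2 intensities relative to the 75th percentile of the same array, so 0 is the 75th percentile, and levels of different probes are not comparable with each other. A gene passed the test when its limma p-value, adjusted by Benjamini-Hochberg over all probes measured in that comparison, was under 0.05, and it was called when the change also exceeded 1.5-fold. Each of the 5 array slides held 8 arrays, and each group lay on 1 slide. Aging in cortex, the deficient diet in WT cerebellum and the supplemented diet in Ttpa-/- cerebellum were compared within a slide. In every other comparison, cortex against cerebellum included, slide and condition cannot be told apart. Markers of cortical and of cerebellar neurons separated the regions on every array, with summed levels of 6.16 to 6.51 against 2.60 to 3.15 for the former and 3.00 to 3.53 against 8.93 to 9.45 for the latter, cortex first. Choroid plexus markers, summed, ran from 1.42 to 7.60 among cortex arrays and from 2.40 to 7.97 among cerebellum arrays. In tissue RNA of this kind, fewer cells of a type and less RNA per cell cannot be told apart.

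The probes are 60-base oligonucleotides, and 3 of them are shown to make clear what a level below refers to, a stretch of one transcript and not the whole of it. The first is the Ttpa probe that was not well above background on all arrays but 1, the second is a dim probe of Ttpal whose bright probe lies elsewhere in the gene, and the third is the single probe that stands for Sec14l1. The whole oligonucleotide hybridises, so no base is set in capitals.
Ttpa probe 2: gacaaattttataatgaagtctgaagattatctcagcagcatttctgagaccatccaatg
Ttpal probe 3: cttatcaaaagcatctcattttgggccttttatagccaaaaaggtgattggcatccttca
Sec14l1 probe 1: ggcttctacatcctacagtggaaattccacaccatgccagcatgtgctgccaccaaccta
On mouse build mm9, as the array files give it, these lie at chr4:19955668-19955727, chr2:163437628-163437687 and chr11:117017699-117017758, all on the plus strand. The other Ttpa probe, probe 1, lies downstream at chr4:19957856-19957915 on the same strand. Ttpal probe 1 lies at chr2:163444600-163444659 and probe 2 at chr2:163441895-163441954. The Scarb1 probes lie at chr5:125757483-125757542 (probe 1) and chr5:125761540-125761599 (probe 2), on the minus strand. Pltp was read at chr2:164665022-164665081, Sec14l2 at chr11:3997274-3997333, Abca1 at chr4:53043944-53044003 and Cyp4f14 at chr17:33042214-33042273, all on the minus strand, and Abcg1 at chr17:31252580-31252639 on the plus strand. No exon annotation of this build was used, so whether a probe lies in a coding exon or an untranslated region is not given.

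Ttpa, the deleted gene, was measured first as a check of the labels. Ttpa probe 1 was dim but well above background on all 12 WT cerebellum arrays, and it was not well above background on 7 of 8 Ttpa-/- cerebellum arrays. In aged WT cerebellum on the normal diet the levels were -3.02, -3.62, -3.23 and -3.48, and on the deficient diet they were -4.29, -4.00, -3.39 and -3.43. In deficient Ttpa-/- cerebellum they were -6.84, -7.04, -6.83 and -6.34, none well above background. In supplemented Ttpa-/- cerebellum they were -6.47, -5.98, -5.00 and -5.23, of which only the third was well above background. No Ttpa-/- array overlapped any WT array. On the deficient diet Ttpa was at least 1.95-fold lower in Ttpa-/- than in WT cerebellum, a bound set by the lowest signal well above background (measured log2 difference -2.98, SE 0.34, limma adjusted p = 5.06e-07). Against WT mice on the normal diet it was at least 2.64-fold lower (adjusted p = 4.16e-08 by limma), and in supplemented Ttpa-/- mice the measured difference was -2.33 (adjusted p = 3.58e-05 by limma), with 1 of 4 Ttpa-/- arrays well above background.

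In cortex the same Ttpa probe was not well above background on 19 of 20 arrays, so no loss of Ttpa was tested there. The means were -4.65 ± 0.39 (SD, n = 4) in young WT, -4.95 ± 0.39 in aged WT and -5.50 ± 1.12 in aged WT on the deficient diet, where 1 array reached -4.07 and stood well above background. They were -6.88 ± 0.15 and -6.68 ± 0.12 in deficient and supplemented Ttpa-/- mice, and the highest Ttpa-/- cortex array, at -6.55, lay below all 8 arrays of WT mice on the normal diet. Ttpa was at least 2.66-fold lower in cortex than in cerebellum of young mice (limma adjusted p = 0.000113) and at least 1.96-fold lower in aged mice on the normal diet (limma adjusted p = 0.000166). The second Ttpa probe, shown above, was well above background on 1 of 40 arrays, a deficient Ttpa-/- cerebellum at -2.67 beside -6.55, -6.58 and -6.31 in its group. The deleted part of Ttpa is not given in the sources used here, so a probe may lie outside it.

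**Figure D1:**
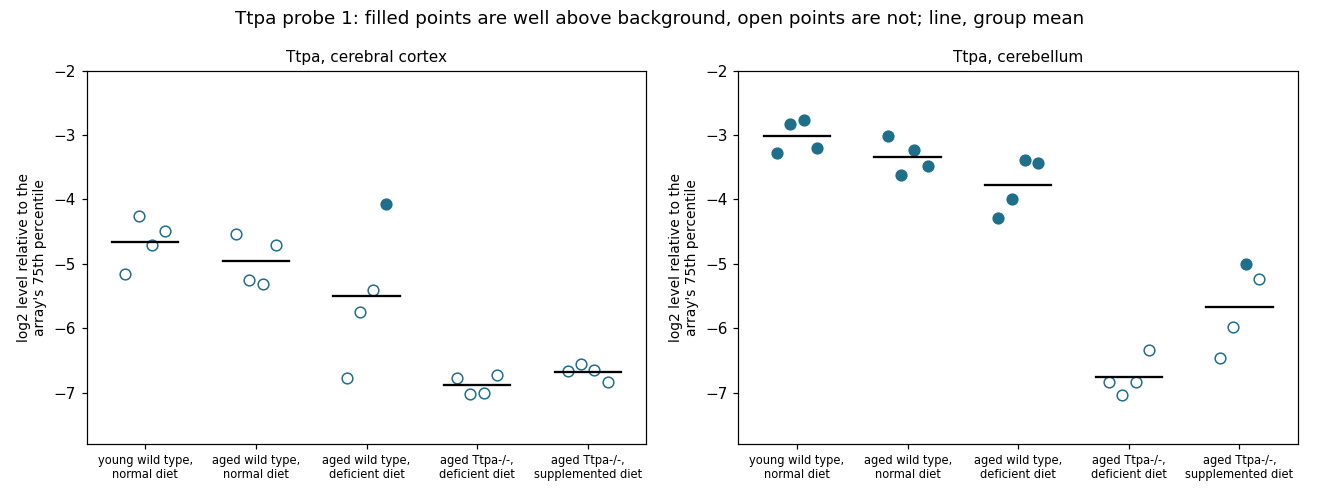
Level of Ttpa (probe 1) on each array, as log2 intensity relative to the array's 75th percentile, by group and region, with filled points for arrays well above background and open points for the others. All 12 WT cerebellum arrays lie above all 8 Ttpa-/- cerebellum arrays, whereas 19 of 20 cortex arrays are not well above background.

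Most of these genes differed between cortex and cerebellum, as did most of all probes tested. Ttpal, Sec14l2 and Scarb1, the last as read by its brighter probe, were higher in cortex. Pltp, Abca1, Abcg1, Cyp4f14 and, in WT mice, Ttpa were higher in cerebellum. In young WT mice 10 of 13 tested probes passed, against 62.5% of all probes, and 9 were called, against 38.4%. In aged WT mice 10 of 13 passed, against 56.4%, and 8 were called, against 33.6%. In aged WT mice on the deficient diet 13 of 13 passed, against 66.9%, with 8 called, against 43.3%. In deficient Ttpa-/- mice 10 of 12 passed, against 65.7%, with 9 called, against 41.9%, and in supplemented Ttpa-/- mice 11 of 12, against 60.2%, with 10 called, against 37.1%. The direction was not shared, since the members divided between those higher in cortex and those higher in cerebellum.

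Ttpal probe 1 varied little between mice of a region. In aged WT mice on the normal diet its probe 1 gave 3.75, 3.84, 3.76 and 3.85 in cortex and 2.47, 2.53, 2.58 and 2.42 in cerebellum. The regions did not overlap, with a difference of 1.30 on the log2 scale (SE 0.08, 2.46-fold, limma adjusted p = 1.28e-15). Across the 5 conditions the Ttpal difference was between 1.05 and 1.44 for probe 1, 1.98 and 2.65 for probe 2, and 0.61 and 1.34 for probe 3, and each passed, so the 3 probes gave the same direction with different sizes. Probe 3 of Ttpal in deficient WT mice, at 0.61, did not pass without the first cerebellum array (0.44, limma adjusted p = 0.0996).

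Sec14l2, the tocopherol-associated protein, gave 1.77, 1.80, 1.76 and 1.95 in aged WT cortex and 0.32, 0.32, 0.46 and 0.57 in aged WT cerebellum. Every cortex array was above every cerebellum array, by 1.40 in the means (SE 0.10, 2.64-fold, limma adjusted p = 2.03e-13), and the difference lay between 1.17 and 1.64 in the 5 conditions. Scarb1, the HDL receptor, gave 0.52, 0.43, 0.47 and 0.22 with probe 1 in aged WT cortex and -0.52, -0.86, -0.63 and -0.71 in cerebellum. The groups did not overlap and differed by 1.09 (SE 0.11, 2.13-fold, limma adjusted p = 3.89e-10). The dimmer Scarb1 probe 2 did not give the same picture, with differences of 0.41, 0.11, 0.41 and 0.38 that did not pass in 4 conditions and -0.56 (adjusted p = 0.0205 by limma) in aged WT mice on the deficient diet. The last did not pass in 10 of 22 alternatives, which ranged from -0.70 to -0.01, nor without deficient WT cortex array 2 (-0.48) or 3 (-0.44) or cerebellum array 2 (-0.39, limma adjusted p = 0.117).

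Abca1, the exporter that loads lipid onto apolipoproteins, gave 0.18, 0.35, 0.46 and 0.33 in aged WT cortex and 1.11, 1.23, 1.14 and 1.51 in aged WT cerebellum. It was lower in cortex by 0.91 on the log2 scale (measured difference -0.91, SE 0.11, 1.89-fold, limma adjusted p = 1.83e-08), without overlap. In young mice the Abca1 difference was -0.82, and in deficient and supplemented Ttpa-/- mice -1.24 and -1.20. Its partner exporter Abcg1 gave 3.35, 3.44, 3.35 and 3.25 in aged WT cortex and 3.69, 3.90, 3.96 and 4.03 in cerebellum, a difference of -0.55 (SE 0.09, 1.46-fold, limma adjusted p = 5.98e-06) with no overlap. Over the 5 conditions Abcg1 differed by -0.52 to -0.94, each passing. With arrays scaled to their median the difference in deficient WT mice was -0.23 (limma adjusted p = 0.168) and did not pass.

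Pltp, the lipid transfer protein of lipoproteins, gave 1.40, 1.47, 1.70 and 0.93 in aged WT cortex and 2.26, 2.29, 2.16 and 2.04 in aged WT cerebellum. All cerebellum arrays were higher, and the difference was -0.81 (SE 0.20, 1.76-fold, limma adjusted p = 0.000738). The Pltp difference passed in 4 conditions, from -0.81 to -1.11, and was -0.32 (limma adjusted p = 0.15) in deficient Ttpa-/- mice, where the cortex and cerebellum groups overlapped. In that condition same-numbered arrays of the 2 regions deviated together, but whether they come from the same mouse is not given. A fit of these 2 groups alone that paired arrays by number was added after the data were seen. In it Pltp passed with the same -0.32 (limma adjusted p = 0.0479), as did Scarb1 probe 2 at 0.41 (limma adjusted p = 0.0242). Choroid plexus marker sums were 3.61 to 7.48 in deficient Ttpa-/- cortex against 2.40 to 2.79 in the cerebellum of that condition. With that sum as a covariate, a fit added after the data were seen, Pltp did not pass. All alternatives for this Pltp difference lay between -0.46 and -0.19. The sums did not overlap between the regions, so the covariate fit cannot tell marker level and region apart, and the cause was not tested.

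Cyp4f14, of the vitamin E catabolic cytochromes, gave 0.26, 0.34, 0.56 and 0.37 in aged WT cortex and 0.97, 0.82, 0.76 and 1.12 in cerebellum. The groups did not overlap, and the difference was -0.54 (SE 0.11, limma adjusted p = 0.00017), and it passed in all 5 conditions, from -0.54 to -0.74. With arrays scaled to their median that of Cyp4f14 in deficient WT mice was -0.26 (limma adjusted p = 0.189) and did not pass. Sec14l1 and Npc1 differed little between the regions of WT mice on the normal diet. Sec14l1 gave 0.43, 0.79, 0.61 and 0.50 in aged WT cortex and 0.29, 0.42, 0.23 and 0.36 in cerebellum (0.26, limma adjusted p = 0.054). It passed in aged WT mice on the deficient diet and in both Ttpa-/- groups, by 0.48, 0.75 and 0.59. Npc1 differed by 0.07 in aged WT mice and passed in the same 3 conditions, by 0.25, 0.28 and 0.29, each under 1.5-fold. These Npc1 differences did not pass in 7, 4 and 2 of the alternatives. For the first they were lost without deficient WT cortex array 1 (0.18) or 2 (0.23) or cerebellum array 4 (0.19), for the second without deficient Ttpa-/- cortex array 2 (0.23) or cerebellum array 4 (0.21), and for the third without supplemented cerebellum array 2 (0.24), with limma adjusted p up to 0.127, 0.0795 and 0.0548.

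**Figure D2:**
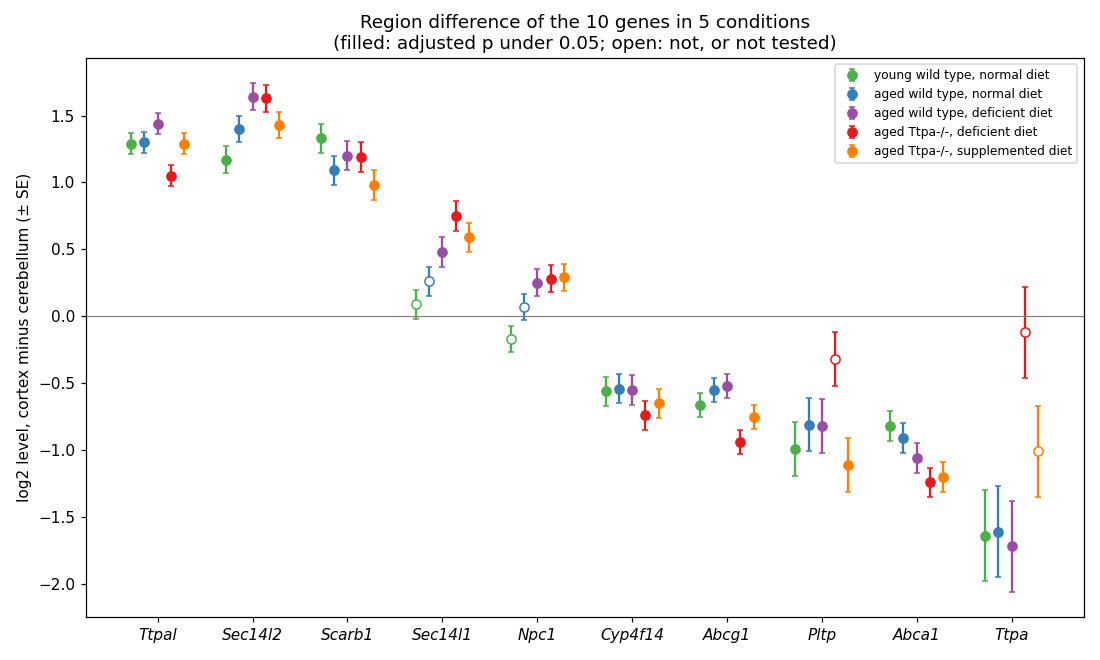
Log2 difference between cortex and cerebellum (positive values are higher in cortex) for 1 probe of each gene in each of the 5 conditions, with bars for the standard error and filled points for differences that passed. Ttpal, Sec14l2 and Scarb1 lie above 0 and Abca1, Abcg1, Cyp4f14 and Pltp below 0 in all 5 conditions, with Pltp nearest to 0 in deficient Ttpa-/- mice at -0.32.

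The loss of Ttpa with the deficient diet, the condition that joins both ways of lowering vitamin E, was examined in cortex against both aged WT groups. Pltp was higher in deficient Ttpa-/- cortex than in either, and Abcg1 was lower than in WT mice on the normal diet. Against WT mice on the deficient diet 2 of 12 tested probes passed, against 13.0% of all probes, and both were called, against 3.07%. Against WT mice on the normal diet 2 of 12 passed, against 19.0%, and 1 was called, against 4.75%. The median change of the members was 0.09 and 0.14 in these comparisons, beside -0.01 and -0.02 over all probes tested. The deficient Ttpa-/- arrays are shared by both comparisons and by the one with the supplemented diet below.

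Pltp in deficient Ttpa-/- cortex gave 2.33, 2.19, 2.25 and 1.73. It gave 1.40, 1.47, 1.70 and 0.93 in aged WT cortex on the normal diet, and 0.88, 1.04, 0.97 and 1.82 on the deficient diet. All 4 Ttpa-/- arrays lay above the normal-diet WT arrays, whereas 1 WT array on the deficient diet, at 1.82, lay within the Ttpa-/- range. Pltp rose by 0.75 against WT mice on the normal diet (SE 0.20, 1.69-fold, limma adjusted p = 0.00783) and by 0.95 against WT mice on the deficient diet (SE 0.20, 1.93-fold, limma adjusted p = 0.00259). Leaving out any 1 array of the compared groups kept the first between 0.61 and 0.88 and the second between 0.85 and 1.16, all passing.

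The Pltp result did not pass when only the 2 groups of each comparison were fitted, with limma adjusted p = 0.0534 on the normal diet and 0.1 on the deficient diet. Choroid plexus markers in cortex varied between arrays, from 3.61 to 7.48 in deficient Ttpa-/-, 2.09 to 7.21 in aged WT and 5.28 to 6.89 in aged WT on the deficient diet, and 0 of the 10 markers passed in either comparison. With the summed choroid plexus level as a covariate, a fit added after the data were seen, the Pltp changes were 0.72 and 0.94 and both passed.

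Cortex Pltp was lower again on the supplemented diet. Supplemented Ttpa-/- cortex gave 0.87, 1.57, 1.34 and 1.60, all below the deficient Ttpa-/- arrays. Pltp fell by 0.78 on the log2 scale (measured change -0.78, SE 0.20, 1.72-fold, limma adjusted p = 0.00835), and leaving out any 1 array kept the change between -0.92 and -0.63, all passing. With only these 2 groups fitted the limma adjusted p was 0.079. In this comparison 2 of 12 probes passed, against 14.1% of all probes, and 1 was called, against 3.31%. Supplemented Ttpa-/- cortex differed from aged WT cortex on the normal diet by -0.03 for Pltp. No probe of these genes passed there, against 0.212% of all probes (0.0920% called), and 0 of the 12 tested had an unadjusted limma p under 0.05.

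Abcg1 moved the opposite way to Pltp in the same cortex groups, by less. It gave 2.96, 3.03, 2.97 and 3.21 in deficient Ttpa-/- cortex, against 3.35, 3.44, 3.35 and 3.25 in aged WT and 3.47, 3.26, 3.26 and 3.30 in supplemented Ttpa-/-. The deficient Ttpa-/- arrays lay below all arrays of these other groups. Abcg1 fell by 0.31 against WT mice on the normal diet (measured change -0.31, SE 0.09, 1.24-fold, limma adjusted p = 0.0187) and rose by 0.28 with the supplemented diet (SE 0.09, 1.21-fold, limma adjusted p = 0.0387). On the deficient diet WT cortex gave 3.19, 3.38, 3.27 and 3.17, and Abcg1 did not pass against it.

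Both Abcg1 changes were under 1.5-fold, so neither was called, and they no longer passed under several settings. With only the compared groups fitted the limma adjusted p was 0.0644 and 0.12, and with arrays scaled to their median the changes were -0.23 (limma adjusted p = 0.412) and 0.17 (limma adjusted p = 0.595). The change against WT mice did not pass without WT array 2 or deficient Ttpa-/- array 1 or 3, at -0.28 each time and with limma adjusted p of 0.0659, 0.0723 and 0.0611. That with the supplemented diet did not pass without deficient array 1, 2 or 3 (0.25, 0.28 and 0.26) or supplemented array 1, 3 or 4 (0.23, 0.30 and 0.29), with limma adjusted p up to 0.133. Oligodendrocyte markers moved with Abcg1, since 3 of 8 (Cnp, Cldn11 and Mal, components of myelin) fell and 0 rose against WT mice on the normal diet and 3 of 8 (Mobp, Cldn11 and Mal) rose with the supplemented diet. Their summed level was 7.70 to 8.48 in aged WT, 7.42 to 7.79 in deficient Ttpa-/- and 8.04 to 8.43 in supplemented Ttpa-/- cortex. With that sum as a covariate, a fit added after the data were seen, the Abcg1 changes were -0.19 (limma adjusted p = 0.264) and 0.16 (limma adjusted p = 0.382). Those of Pltp were 0.81 and -0.84 and passed. The sum itself differed between deficient and supplemented Ttpa-/- cortex without overlap. This fit therefore cannot tell the marker level and the condition apart, and the cause was not tested. In the comparison with WT mice on the normal diet 4 of 10 microglial and 3 of 8 astrocyte markers also fell. There 2 of 7 striatal neuron markers rose and 0 fell, with summed levels of 5.73 to 5.96 in deficient Ttpa-/- and 5.10 to 5.49 in aged WT cortex. The part of these markers in the Pltp and Abcg1 results was not tested.

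Scarb1 was the other gene to pass against WT mice on the deficient diet, with its dim probe 2 alone. That probe gave -2.45, -3.10, -2.82 and -2.91 in deficient Ttpa-/- cortex and -3.33, -3.87, -3.98 and -3.40 in WT cortex on the deficient diet, where the third array was not well above background. The groups did not overlap, and the level rose by 0.83 (SE 0.21, 1.78-fold, limma adjusted p = 0.0103). Scarb1 probe 1, which was above background on all 40 arrays, differed by 0.12 in the same comparison and did not pass. The probe 2 change was 0.30 (limma adjusted p = 0.0645) with the normexp background correction, and without the first Ttpa-/- array it was 0.71 (limma adjusted p = 0.0595). Fitted with the compared groups alone it gave an adjusted p of 0.0964 by limma.

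The remaining members gave no call with the loss of Ttpa in cortex. Sec14l1 gave 0.99, 1.07, 0.89 and 0.54 in deficient Ttpa-/- cortex, 0.29 above aged WT (limma adjusted p = 0.0733). Ttpal probe 1 gave 3.53, 3.63, 3.54 and 3.72, with a difference of -0.20 from aged WT (limma adjusted p = 0.0729). The Ttpal groups did not overlap and those of Sec14l1 did, and neither gene passed. Without the fourth Ttpa-/- array, where Sec14l1 was lowest, both passed, Sec14l1 at 0.40 (limma adjusted p = 0.0101) and Ttpal probe 1 at -0.23 (limma adjusted p = 0.038), and Sec14l1 also passed without the second WT array (0.36, limma adjusted p = 0.0496).

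**Figure D3:**
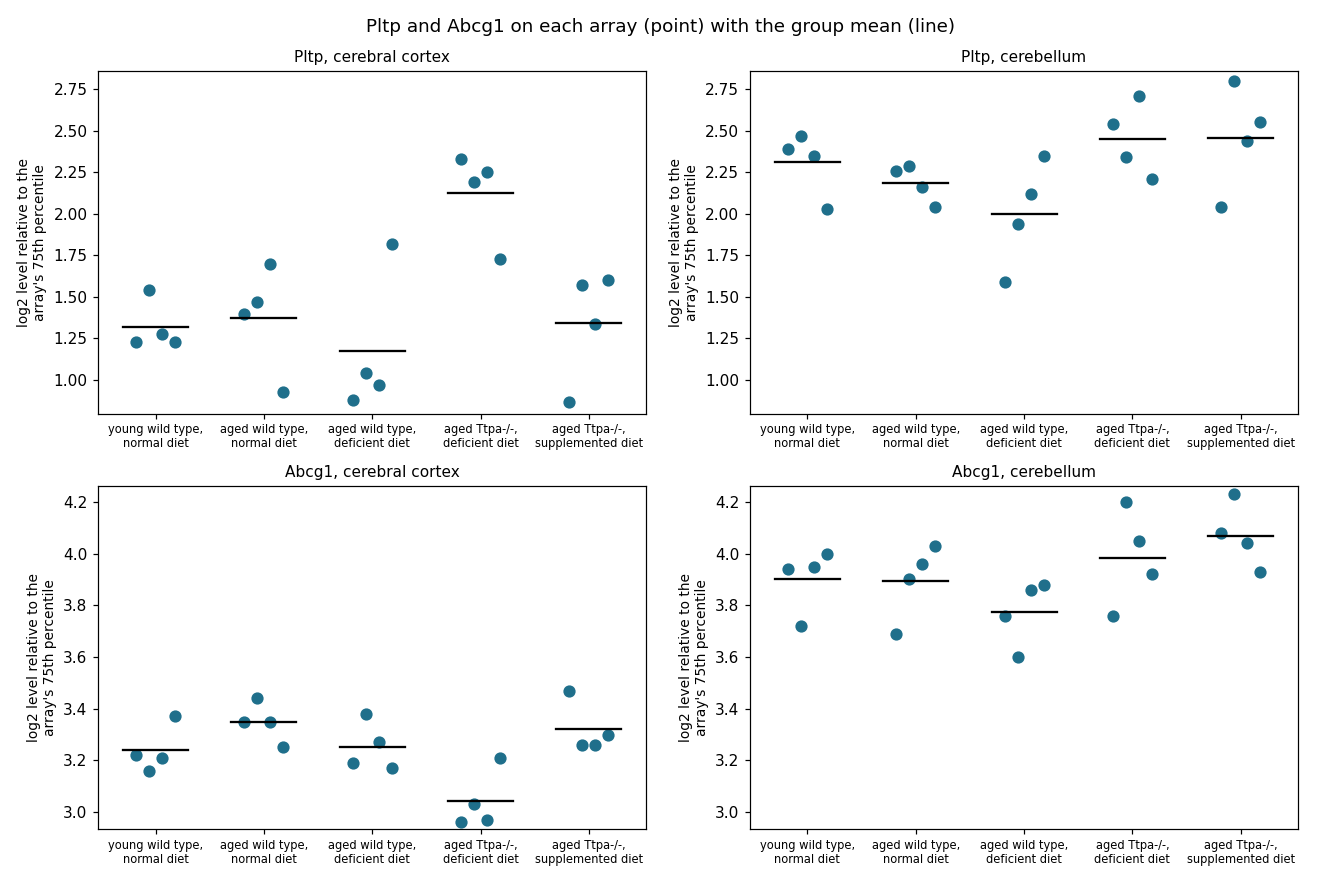
Levels of Pltp and Abcg1 on each array, as log2 intensity relative to the array's 75th percentile, by condition in cortex and cerebellum, with points for arrays and lines for group means. In cortex the 4 deficient Ttpa-/- arrays of Pltp, between 1.73 and 2.33, lie above those of aged WT mice on the normal diet and of supplemented Ttpa-/- mice, and those of Abcg1, between 2.96 and 3.21, lie below them.

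In cerebellum the loss of Ttpa left 1 probe past the test, that of Ttpa itself. Against WT mice on the deficient diet 1 of 13 probes passed and was called, against 12.8% and 4.94% of all probes, and against WT mice on the normal diet again 1 of 13, against 13.2% and 4.46%. Pltp gave 2.54, 2.34, 2.71 and 2.21 in deficient Ttpa-/- cerebellum and 1.59, 1.94, 2.12 and 2.35 in WT cerebellum on the deficient diet. The ranges overlapped, and the difference of 0.45 did not pass (limma adjusted p = 0.129). Without the first deficient Ttpa-/- array Ttpal probe 1 passed against WT mice on the deficient diet (0.31, limma adjusted p = 0.00408), and without the second Ttpal probe 2 passed against WT mice on the normal diet (-0.66, limma adjusted p = 0.0246). The supplemented diet in Ttpa-/- cerebellum, compared within a slide, moved 0 of 11 tested probes past the test, against 0.767% of all probes (0.343% called), with 1 at an unadjusted limma p under 0.05.

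Supplemented Ttpa-/- cerebellum differed from aged WT cerebellum on the normal diet in 3 of 13 probes, against 14.7% of all probes, with 2 called, against 4.91%. One was Ttpa, given above. Ttpal probe 2 gave -4.87, -4.60, -5.16 and -5.18 in Ttpa-/- mice, the last not well above background, against -4.28, -4.28, -4.32 and -4.01 in WT mice. It fell by 0.73 on the log2 scale without overlap (measured change -0.73, SE 0.20, 1.66-fold, limma adjusted p = 0.0139), whereas Ttpal probes 1 and 3 differed by -0.13 and -0.41 and did not pass. The Ttpal probe 2 change was -0.28 (limma adjusted p = 0.123) with the normexp correction, and its adjusted p by limma was 0.0512 without the fourth Ttpa-/- array.

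Abca1 was the third. It gave 1.81, 1.47, 1.62 and 1.48 in supplemented Ttpa-/- cerebellum and 1.11, 1.23, 1.14 and 1.51 in aged WT cerebellum. The highest WT array overlapped the Ttpa-/- range, and Abca1 rose by 0.35 (SE 0.11, 1.28-fold, limma adjusted p = 0.0309). The Abca1 change, under 1.5-fold and so not called, did not pass without WT array 1, 2 or 3 (0.31, 0.34 and 0.31) or Ttpa-/- array 1 or 3 (0.28 and 0.34), with limma adjusted p up to 0.117. Nor did it pass with arrays scaled to their median (limma adjusted p = 0.227) or with the compared groups alone (limma adjusted p = 0.13).

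Aging of WT mice moved none of these genes past the test in either region. In cortex, within a slide, 0 of 12 probes passed, against 4.15% of all probes (2.09% called), and 2 had an unadjusted limma p under 0.05. In cerebellum 0 of 13 passed, against 11.0% (5.03% called), and 3 had an unadjusted limma p under 0.05. The nearest was Npc1 in cortex, the lysosomal cholesterol exporter, at -0.17, -0.28, -0.24 and -0.23 in young and 0.08, 0.15, 0.10 and 0.00 in aged mice. All aged arrays lay above all young arrays (exact permutation p = 0.0286, two-sided, the smallest that 4 against 4 allows), and the difference of 0.31 (SE 0.10) had a limma adjusted p of 0.0733. Npc1 passed when arrays were weighted by their quality (limma adjusted p = 0.01) and by the adjusted test of the methods. Sec14l2 in cortex differed by 0.26 between aged and young mice (limma adjusted p = 0.188). Of 7 striatal neuron markers 3 fell and 0 rose with age in cortex. Their summed levels were 5.10 to 5.49 in aged and 6.02 to 6.38 in young cortex, and their part was not tested. In cerebellum Ttpal probe 2 passed with array weights (0.49, limma adjusted p = 0.0368) and without the first young array (0.64, limma adjusted p = 0.0452), and Scarb1 probe 2, at 0.52 (limma adjusted p = 0.113), passed with array weights (0.58, limma adjusted p = 0.034).

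The deficient diet in aged WT mice also moved none of these genes past the test. In cortex 0 of 12 probes passed, against 0.340% of all probes (0.223% called), with 1 at an unadjusted limma p under 0.05, Scarb1 probe 2 at -0.55. In cerebellum, within a slide, 0 of 13 passed, against 4.58% (1.27% called), with 2 at an unadjusted limma p under 0.05. These were Sec14l2, at 0.03, 0.19, 0.24 and 0.23 on the deficient diet against 0.32, 0.32, 0.46 and 0.57 on the normal diet (-0.24, limma adjusted p = 0.163), and Ttpal probe 1 (-0.16, limma adjusted p = 0.222). The arrays of Sec14l2 did not overlap between the diets.

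Whether an effect differed between cortex and cerebellum was tested directly, and no member passed in any of 6 tests. With 1 array left out, up to 3 probes passed for the loss of Ttpa on or with the deficient diet. All-probe shares were 1.83% for aging, 0.0126% for the deficient diet in WT mice, 1.15% for the loss of Ttpa on the deficient diet, 7.04% for the loss of Ttpa with the deficient diet, 0.0567% for the supplemented diet and 1.19% for supplemented Ttpa-/- against WT mice. Counts at an unadjusted limma p under 0.05 were 0, 1, 5, 6, 2 and 1 in that order. Ttpa is among the 5 and the 6, but it was not well above background on 19 of 20 cortex arrays. The size of its regional difference rests on dim values there and is not given. The nearest other members were Sec14l1 (0.49, limma adjusted p = 0.0598) and Abcg1 (-0.39, limma adjusted p = 0.0607), both for the loss of Ttpa with the deficient diet and given as the cortex effect minus the cerebellum effect. For Pltp the change with the supplemented diet was -0.78 in cortex and 0.01 in cerebellum, and the difference between them of -0.79 (SE 0.28) did not pass (limma adjusted p = 0.157).

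**Figure D4:**
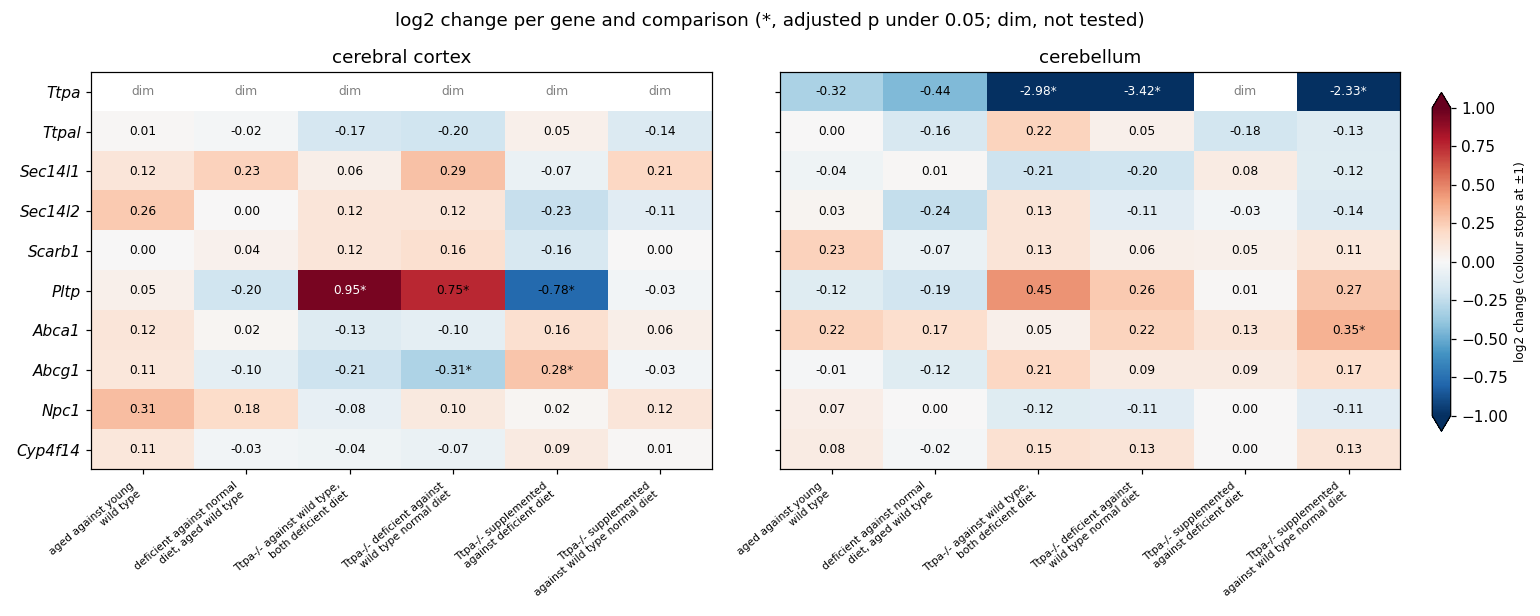
Colour map of the log2 change of 1 probe per gene (vertical) in each comparison of age, diet or genotype (horizontal), in cortex and cerebellum, with a star where the gene passed and "dim" where it was not tested. In cortex the stars are those of Pltp (0.95, 0.75 and -0.78) and Abcg1 (-0.31 and 0.28), and the columns for aging and for the deficient diet in WT mice carry none in either region.

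Genes of the same pathway were followed as 7 lists with 70 names, 69 of them on the array. In aging cortex those that passed did so upward, and 0 passed downward, where 4.15% of all probes passed. Among them were Sec14l3, a further CRAL-TRIO protein (1.20, limma adjusted p = 0.0422), the carriers Apod (1.25) and Apoc1 (0.76), and the lysosomal Npc2 (0.32) and Lamp2 (0.36). In aging cerebellum 0 of 7 CRAL-TRIO genes, 1 of 7 receptor and lipase genes, 3 of 5 carrier genes, 3 of 10 ABC transporters, 1 of 7 lysosomal genes, 2 of 8 cytochromes and 3 of 11 nuclear receptors and sterol regulators passed, all upward, where 11.0% of all probes passed. Lpl, lipoprotein lipase, rose most of these (2.30, limma adjusted p = 2.91e-11), and Apoe, the main lipid carrier of brain, rose by 0.56 (limma adjusted p = 7.14e-05). Microglial markers moved with them, with 8 of 10 rising and 0 falling (median 1.54) and a summed level of 6.51 to 6.64 in young and 7.01 to 7.17 in aged cerebellum, and 2 of 3 blood markers rose. Of 9 choroid plexus markers tested 3 fell and 0 rose, with summed levels of 3.12 to 7.97 in young and 2.49 to 2.70 in aged cerebellum. Of 8 cerebellar neuron markers 3 fell and 0 rose, with 9.21 to 9.45 in young and 8.97 to 9.11 in aged cerebellum. The part of all these markers in the result was not tested.

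With the loss of Ttpa and the deficient diet in cortex, against WT mice on the normal diet, lipoprotein receptors moved both ways, where 19.0% of all probes passed. Of 7 tested, 3 fell, the receptors Vldlr (-0.29), Sort1 (-0.41) and Sorl1 (-0.31), and 1 rose, Lrp1 (0.23). Among 10 other ABC transporters Abca2 rose (0.37) and Abca3 (-0.30) and Abcg2 (-0.42) fell, and of 8 lysosomal genes Lamp2 fell (-0.35). Of 11 nuclear receptors and sterol regulators Ppara rose (0.43) and Nr1i3 fell (-2.0), of 8 cytochromes Cyp4f18 rose (0.44), of 8 CRAL-TRIO genes Ptpn9 rose (0.31), and 0 of 5 carriers passed. With the supplemented diet, whose fit shares the deficient Ttpa-/- arrays, Vldlr (0.26), Sort1 (0.38), Abca3 (0.26) and Lamp2 (0.35) rose and Ptpn9 (-0.38), Cyp4f18 (-0.45), Ppara (-0.38) and Stard3 (-0.19) fell. No list gene passed between supplemented Ttpa-/- and aged WT cortex, nor with the deficient diet in WT cortex.

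In cerebellum genes of several lists passed. With the loss of Ttpa and the deficient diet, against WT mice on the normal diet, the lysosomal genes Lipa (-0.53) and Scarb2 (-0.29) fell, as did Lpl (-0.67), and Lrp8 (0.35), Sort1 (0.33), Apoc1 (0.54), Abca7 (0.32) and Ppara (0.39) rose, where 13.2% of all probes passed. In that comparison 5 of 10 microglial markers fell and 0 rose, with summed levels of 6.73 to 7.02 against 7.01 to 7.17, and 2 of 8 oligodendrocyte markers fell, with 7.45 to 7.89 against 7.97 to 8.28, and their part in the result was not tested. In supplemented Ttpa-/- mice Lipa (-0.34), Scarb2 (-0.28) and Lpl (-0.68) were lower than in WT mice, and Apoc1 (0.77) and Ppara (0.45) were higher, with the WT arrays shared between the comparisons. There 3 of 6 CRAL-TRIO genes fell, Clvs2 (-0.68), Ptpn9 (-0.41) and Mospd2 (-0.40), where 14.7% of all probes passed, and 2 of 10 microglial markers fell. In WT cerebellum the deficient diet, within a slide, raised Sec14l4 (1.74) and Abca7 (0.33) and lowered Rlbp1 (-0.71), Clvs2 (-0.60) and Scarb2 (-0.28). Sec14l4, Rlbp1 and Clvs2 are CRAL-TRIO proteins, so 3 of 7 tested genes of that list passed, in both directions, where 4.58% of all probes passed.

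The sequence before the transcription start is shown for Pltp, whose changes in cortex are given above, and for Abca1, whose region difference was largest among the lipid exporters. Both are 250 bases from RefSeq on build GRCm38.p6, minus strand, written towards the start site. Capitals mark a searched motif.
Pltp upstream: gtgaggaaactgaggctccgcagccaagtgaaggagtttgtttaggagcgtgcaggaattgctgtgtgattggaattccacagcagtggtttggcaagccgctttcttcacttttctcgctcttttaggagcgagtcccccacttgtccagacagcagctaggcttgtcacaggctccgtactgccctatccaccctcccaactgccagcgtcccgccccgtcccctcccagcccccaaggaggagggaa
Abca1 upstream: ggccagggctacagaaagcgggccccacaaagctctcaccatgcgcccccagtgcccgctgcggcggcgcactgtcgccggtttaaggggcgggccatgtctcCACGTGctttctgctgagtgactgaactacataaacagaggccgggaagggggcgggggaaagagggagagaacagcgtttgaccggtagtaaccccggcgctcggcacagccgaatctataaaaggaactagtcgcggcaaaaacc
They lie at chr2:164857709-164857958 (Pltp) and chr4:53159896-53160145 (Abca1), with G and C making up 57.6% and 61.6% of the bases. The motifs AGGTCA (a nuclear receptor half-site), TCACNCCAC (a sterol regulatory element) and CACGTG (an E-box) were searched on both strands. Only exact matches were counted, so a binding site that departs from these bases would be missed. They occur in 14%, 1.05% and 6.02% of 32851 upstream sequences of that length. Upstream sequences were found for 5 members, 9 sequences in all, and the only match was 1 CACGTG in Abca1, starting at position -147 from the start site. The other 5 members had no entry in the table used.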

How the data were processed

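Per the labels, RNA of cerebral cortex and cerebellum was hybridised to Agilent single-colour arrays, 4 mice per group. The authors deposited scanner intensities (Feature Extraction, with version 10.1.1.1 in the submitters' processing notes and 10.7.3.1 in the file headers) and a table of log2 values, which equalled the values used here after centring each probe (median absolute difference 0.000915 on the log2 scale). Whether same-numbered cortex and cerebellum arrays come from the same mouse is not given in the sources used here.

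Processed intensities were put on the log2 scale and the 75th percentile of each array, 365 to 925, was subtracted. Control spots and 92 of 55681 probes without a value on every array were left out. Between 51.4% and 61.4% of probes were well above background on an array, and 0 probe values were saturated. The number of arrays limits the precision. Probes that stood well above background throughout 1 or both compared groups (4 arrays each) were tested with limma 3.58.1 in R 4.3.3, with 1 coefficient for each of 10 groups and Benjamini-Hochberg adjustment over all tested probes, so every adjusted p in the text is from limma. Log2 fold changes are given with their standard error, and probes were called where the adjusted p was below 0.05 and the fold above 1.5. The scripts were tested on simulated data.

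Members and gene lists were chosen with earlier results of these data known. All probes of the 10 members are named, with values for those that passed in at least 1 comparison and for the nearest that did not. From 7 pathway lists, genes that passed are named, apart from some that are not reported here. Cell type marker lists of neurons, choroid plexus, oligodendrocytes, microglia and astrocytes were summed per array or counted. Same-numbered arrays of deficient Ttpa-/- cortex and cerebellum deviated together (correlations 0.175 to 0.628, each of 4 highest with its own number). A fit that pairs them by number was therefore added after the data were seen. Same-numbered arrays of deficient and supplemented Ttpa-/- cerebellum, which come from different mice, correlated up to 0.664. The correlations therefore do not show that arrays of 1 number come from the same mouse. Alternatives were other scaling, background correction, filters, weights, fits of the compared groups alone, the methods' t-test, the replicate block, and leaving out each array.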

Additional observations from a re-analysis of the deposited data

Results flagged for a closer look

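Of 140 sets of 4 arrays, 1 for each probe and group, 9 held an array whose gap to the nearest of the others was most of the range of its group, and chance gives about 1 in 20 sets. For Pltp these were the fourth WT cortex on the deficient diet, at 1.82 with the next at 1.04, and the second young WT cortex, at 1.54 with the next at 1.28. The first of them lowers the contrast with deficient Ttpa-/- cortex, which was 1.16 on the log2 scale without it. Ttpa probe 2 stood at -2.67 in the second deficient Ttpa-/- cerebellum, against -6.31 for the next, and at -6.59 in the fourth supplemented Ttpa-/- cortex, where none of the 4 arrays was well above background. Ttpal probe 1 was at 2.42 in the second WT cerebellum on the deficient diet. Ttpal probe 2 was at -2.11 in the fourth aged WT cortex and at -4.01 in the fourth aged WT cerebellum. Sec14l1 was at 0.85 in the fourth young WT cortex, with the next at 0.38, and that array also had the lowest choroid plexus marker sum in cortex, 1.42. Scarb1 probe 1 was at 0.53 in the third deficient Ttpa-/- cortex, below 0.58 for the next, a gap of little size in a group of narrow range.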

How the results depend on the processing

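Of 2278 values recomputed for 98 results on single probes, 2113 kept their direction and side of the threshold, 66 no longer passed, 99 newly passed and 0 reversed. Called members with the loss of Ttpa on the deficient diet in cortex numbered 2, and 1 with normexp or with genes in place of probes. Fitted alone, or by the methods' t-test after adjustment, 0 were called there and 0 in place of 1 for the loss of Ttpa with the deficient diet and for the supplemented diet in cortex. By adjusted p alone the last 2 gave 2 each, and the regions of deficient WT mice 13 in place of 8. The loss with the deficient diet in cortex gave 2 with no filter. Supplemented Ttpa-/- against WT cerebellum gave 1 in place of 2 with normexp or with genes, and against WT cortex 1 in place of 0 with no filter. The deficient diet in WT cortex gave 1 in place of 0 with array weights.

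Region differences for the loss of Ttpa with the deficient diet numbered 0, but 2 with quantile normalization, 1 with normexp, 3 with no filter, 1 with the replicate block, 4 with array weights, 2 with choroid plexus as covariate (added after seeing the data) and 1 with the compared groups alone. On the deficient diet they numbered 3 in place of 0 with array weights. Leaving out 1 array gave 0 to 3 for both, highest without the first deficient Ttpa-/- cerebellum array; the first was also above 0 without the second of that group (2), deficient Ttpa-/- cortex 4 (2), aged WT cortex 2 (1) or aged WT cerebellum 4 (1), and the second without deficient WT cortex 4 (1) or deficient Ttpa-/- cortex 4 (2). Other ranges without 1 array were 1 to 2 for the loss of Ttpa on the deficient diet in cortex and with it in cerebellum, 1 to 2 for supplemented Ttpa-/- against WT cerebellum and 0 to 1 for aging cerebellum. Between regions they were 9 to 10 in young, 8 to 9 in aged and 7 to 9 in deficient WT mice, 9 to 9 in deficient and 9 to 10 in supplemented Ttpa-/- mice, and all other counts did not move (0 to 0 or 1 to 1). The counts of region differences include Ttpa, which was not well above background on 19 of 20 cortex arrays. The causes were not tested.

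Scaling to the array median moved the median of all probes by -0.18 (deficient diet, WT cerebellum), 0.18 (loss of Ttpa on it, cerebellum), -0.11 (supplemented diet, cortex), 0.29 (regions of deficient WT mice), and 0.26 and -0.20 (region differences of the first 2). Same-numbered arrays elsewhere correlated between -0.446 and 0.664, a range that pools pairs within a region with pairs between regions. It therefore does not settle whether cortex and cerebellum arrays of the same number come from the same mouse. The replicate block changed no other count. Slide as a block could not be fitted for groups that each lie on 1 slide and was not run. Dim probes (Ttpa, Ttpal probes 2 and 3, Scarb1 probe 2) limit what these arrays can show.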
